A study of Homo sapiens with 12 samples.

Results

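The comparison described here is ascorbic acid (AA) against control in the clear cell renal cell carcinoma line labelled 786, read by HELP-tagging. Its members are the 6 libraries of that line among the 12 libraries of the series, chosen by their labels alone. They come from 3 DNA samples, 1 control and 2 treated with AA (AA sample 1 and AA sample 2), each cut with HpaII and, in a separate reaction, with MspI. The other 6 libraries have the same layout in a line labelled 769 and are used for the shared estimate of spread and for comparison. All 6 DNA samples are genomic DNA of cultured lines of 1 tumour type. The labels give no dose, time, passage or clone, and do not say whether the AA samples of a line are separate cultures. Each SD and p-value below rests on the spread between the AA samples within a line, which may be technical. None measures a spread between controls, as each line has 1.

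HpaII and MspI both recognise CCGG. HpaII is blocked when the inner cytosine carries 5-methylcytosine or 5-hydroxymethylcytosine, whereas MspI cuts in each of these states, so a tag in an HpaII library marks a site that was open, that is unmodified, in some of the cells. TET enzymes oxidise 5-methylcytosine to 5-hydroxymethylcytosine and further, and ascorbic acid keeps their iron reduced. Because 5-hydroxymethylcytosine blocks HpaII too, only the full loss of the modification raises the HpaII signal. In most human cells CCGG sites that stand alone are largely methylated, and sites packed into CpG islands, many of them promoters, are largely unmethylated.

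The readout is a class's share of a sample's nuclear HpaII tags over its share of that sample's nuclear MspI tags. It is called the HpaII/MspI ratio below. A value of 1 is the genome-wide mean, so the ratio shows where the open sites lie, not how many there are. Ratios are given for regions and classes with at least 200 HpaII tags in the control, because the control HpaII library is shallow. Of the pooled classes, 8 of 8 by CCGG density, 41 of 41 chromosome arms, 4 of 10 named loci and 7 of 24 promoter classes passed, as did 212 of 309 windows of 10 Mb. With 1 control against 2 AA samples, an exact one-sided permutation test cannot give a p below 1 in 3. Single classes are therefore described sample by sample without a test.

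Promoter sequences show what is being read. The 250 bases before the start site are printed for the only TET and the only DNMT gene whose promoter could be placed on the deposited site list, and for the zinc finger and the solute carrier gene with the most control HpaII tags. The CCGG sites are in capitals, each line runs 5′ to 3′ on the gene's strand, and the sequences are RefSeq's for GRCh38.p14. Positions are those of the first and last matched site in the deposited files (hg19).
DNMT3A: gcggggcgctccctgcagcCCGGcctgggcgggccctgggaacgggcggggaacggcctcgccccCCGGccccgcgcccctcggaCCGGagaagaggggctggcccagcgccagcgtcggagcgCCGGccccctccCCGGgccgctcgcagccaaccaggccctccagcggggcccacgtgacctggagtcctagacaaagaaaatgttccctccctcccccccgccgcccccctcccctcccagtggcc
TET3: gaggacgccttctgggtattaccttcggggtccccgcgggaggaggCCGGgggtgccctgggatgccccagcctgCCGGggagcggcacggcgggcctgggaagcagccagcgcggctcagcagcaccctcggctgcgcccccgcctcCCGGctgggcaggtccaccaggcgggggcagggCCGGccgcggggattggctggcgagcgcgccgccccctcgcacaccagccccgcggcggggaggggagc
ZNF319: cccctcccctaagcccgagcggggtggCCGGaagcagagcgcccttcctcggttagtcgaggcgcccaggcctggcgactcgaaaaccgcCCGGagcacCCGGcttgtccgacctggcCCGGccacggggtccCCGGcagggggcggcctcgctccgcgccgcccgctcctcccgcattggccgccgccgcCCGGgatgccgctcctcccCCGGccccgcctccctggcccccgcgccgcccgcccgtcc
SLC75A1: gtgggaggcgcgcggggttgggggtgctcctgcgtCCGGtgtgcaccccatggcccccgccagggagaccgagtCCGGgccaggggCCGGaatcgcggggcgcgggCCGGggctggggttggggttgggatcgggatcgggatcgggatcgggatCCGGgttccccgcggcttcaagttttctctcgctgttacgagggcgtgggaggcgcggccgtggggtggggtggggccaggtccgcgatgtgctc
DNMT3A encodes a de novo DNA methyltransferase, and its 5 matched sites lie at chr2:25475297-25475414 on the minus strand. They held 78, 30 and 37 MspI tags in the control, AA sample 1 and AA sample 2. Their HpaII tags numbered 0, 114 and 30. At the depth of the control, the AA counts correspond to 1.93 and 1.32 tags. A count of 0 allows up to 3 tags if tags are independent, so no difference was detectable at this depth. TET3 encodes 1 of the dioxygenases that oxidise 5-methylcytosine, and its 5 sites lie at chr2:74229617-74229825 on the plus strand. HpaII tags there numbered 6, 211.5 and 83, and the AA counts correspond to 3.58 and 3.65 tags at the control's depth. The TET3 promoter was thus open to HpaII in all 3 samples. ZNF319 (8 sites at chr16:58034535-58034798, minus strand) held 15, 248 and 94 HpaII tags, and SLC75A1 (5 sites at chr4:2936008-2936128, minus strand) held 19, 197 and 43. Both were picked for a high control count, so their order between samples says nothing. The printed stretches hold 5, 4, 7 and 5 of the matched sites in the order DNMT3A, TET3, ZNF319 and SLC75A1.

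The control and AA HpaII libraries differed in depth and in how tags were spread. The control HpaII library held 189704 tags in all, against 11054037 in AA sample 1 and 4012468 in AA sample 2, and the 3 MspI libraries held 6164334 to 9268036. The 100 sites with most tags took 14.1% of the nuclear tags of the control HpaII library, 8.37% in AA sample 1 and 4.11% in AA sample 2. Tags placed on the mitochondrial sequence took 10.1%, 8.88% and 3.30% of all HpaII tags, and they stayed out of every nuclear share. Of 40 sites that each held over 0.1% of a nuclear 786 library, 29 passed that level in the control HpaII library only. The 19 of these on chromosomes 1 to 22 and X held 0.103% to 0.205% of the control's HpaII tags and at most 0.00307% of those of an AA sample. The 40 sites together took 10.4%, 6.90% and 2.25% of the HpaII tags, so several results below are also given without them. Values given once include them. Whether treatment, DNA sample or library preparation set these differences cannot be told apart, since the control is 1 sample.

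With AA, HpaII tags were spread over more sites at the same depth. After thinning the HpaII libraries to the depth of the smallest, 34450 nuclear CCGG sites had a tag in the control. The same depth gave 87950 sites in AA sample 1 and 100772 in AA sample 2. The MspI libraries, thinned likewise, gave 446010, 278775 and 533897 sites, so the control was the lowest of the 3 in HpaII but not in MspI. Most open sites of the control were found again with AA, since 79.8% of them had a tag in AA sample 1 and 81.2% in AA sample 2. In line 769 the control was likewise the lowest at the same depth, with 52486 sites against 91653 and 62208. The mean number of tags per site before thinning was 4.81 in the 786 control, although that library was the shallowest. The part of repeated amplification in the site counts was not tested.

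The same pattern held at promoters. RefSeq promoters of 300 bases were placed on the site list by the spacing of their CCGG sites, which needs at least 4 sites and succeeded for 5324 genes. At equal depth 2190 of these promoters (41.1%) had an HpaII tag in the control, against 3824 (71.8%) in AA sample 1 and 4139 (77.7%) in AA sample 2. With all tags, the counts were 2195, 5107 and 5142, so nearly every placed promoter had an HpaII tag in the AA samples. Promoters of homeobox and other developmental transcription factors were found less than the mean in each sample, at 26.6%, 51.6% and 67.2% of 64 promoters at equal depth. Those of zinc finger transcription factors, at 39.5%, 73.9% and 74.5% of 157, lay near the mean.

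**Figure D1:**
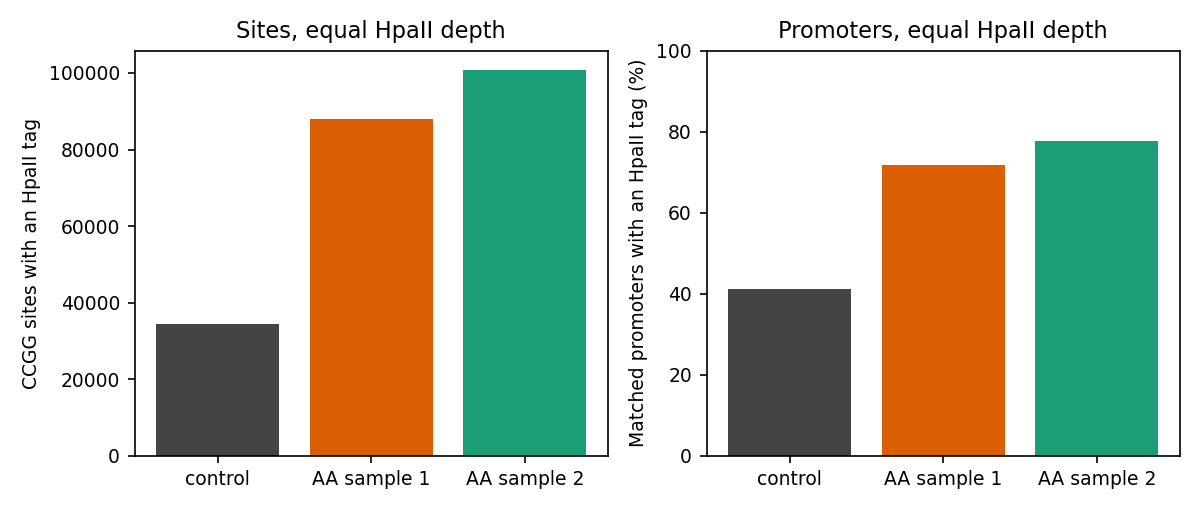
Left, number of CCGG sites with an HpaII tag and right, share of 5324 placed promoters with an HpaII tag (%), for the 3 DNA samples of 786 with the HpaII libraries thinned to equal depth; each bar is 1 sample. The control has 34450 sites and 41.1% of promoters, below both AA samples in both panels.

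A small group of promoters stayed closed to HpaII under AA. Of 1041 placed promoters with at least 30 MspI tags in each 786 sample, 30 had an HpaII/MspI ratio under 0.1 in both AA samples, a group picked after the values were seen. In 22 of the 30 no HpaII tag was found in either AA sample. A control HpaII tag was found in 3 of the 30 (10.0%) and in 593 of the other 1011 promoters (58.7%). The closed promoters included VWC2, a secreted BMP antagonist (6 sites at chr7:49813014-49813274), with 0 HpaII tags in all 3 samples against 52, 91 and 109 MspI tags. IKZF1, a transcription factor of lymphoid cells (5 sites at chr7:50344110-50344343), also had 0 HpaII tags in all 3 samples against 130, 42 and 37 MspI tags. UTF1, a transcription factor of pluripotent cells (5 sites at chr10:135043493-135043741), had 1, 0 and 1 HpaII tags against 105, 55 and 91 MspI tags. EGR4, an early growth response factor (6 sites at chr2:73520631-73520819), was the exception, with 13 HpaII tags in the shallow control against 7 and 1 with AA. Apart from EGR4, 2 of the 30 had a control tag, so the promoters closed under AA were for the most part without a tag in the control too.

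On tag counts, the distribution of open sites by CCGG density was similar in the 3 samples of 786. In the control the ratio rose from 0.484 at sites with no other CCGG in the 1 kb centred on them to 2.77 at sites with 24 or more, themselves counted. In AA sample 1 it ran from 0.561 to 2.26, and in AA sample 2 from 0.457 to 2.36. At lone sites the control lay between the AA samples. The AA samples averaged 0.509 ± 0.0733 (SD, n = 2) there, so on tags their spread covers the control. The folds at lone sites were 2.01 and 1.94 with each site counted once, and with at most 5 tags per site 1.63 and 1.68, so the place of the control there depends on how tags are counted.

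At the densest sites both AA samples lay below the control. Sites in the class of 24 or more had 0.814 and 0.850 of the control ratio, and sites with 16 to 23 had 0.871 and 0.947. Pairs of sites (2 within 1 kb) had 1.26-fold and 1.04-fold, and sites in groups of 3 to 4 had 0.993-fold and 0.875-fold. At 5 to 7 sites, both AA samples were higher, by 1.13-fold and 1.14-fold. From 8 to 15 sites the 4 folds lay between 0.981 and 1.06, so the 3 samples were close together. The ratio of isolated sites (1 to 2 per kb) to dense sites (16 or more) was 0.189 in the control, 0.268 in AA sample 1 and 0.204 in AA sample 2, which is 1.42-fold and 1.08-fold of the control. AA sample 2 fell below the control, at 0.965-fold, with sites counted in 2 kb, and at 0.696-fold when sites needed 10 or more tags in every MspI library of 786. AA sample 1 was at 1.34-fold and 1.58-fold under these settings.

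**Figure D2:**
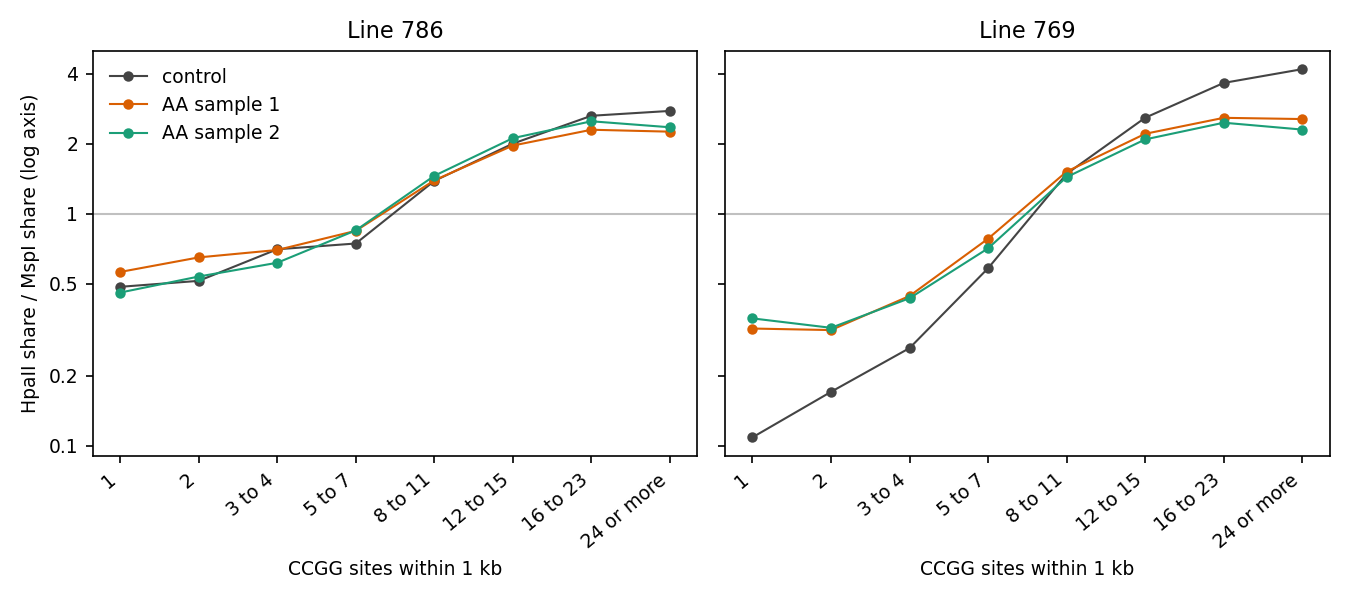
HpaII/MspI ratio (log axis) against the number of CCGG sites within 1 kb, for the control and both AA samples of 786 (left) and of 769 (right); each point is 1 sample. The 3 samples of 786 run close together from 0.484, 0.561 and 0.457 at lone sites to 2.77, 2.26 and 2.36 at the densest, while the 769 control stands below its AA samples at sparse sites.

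In line 769 the control stood further from its AA samples on tags. Its control ratio was 0.109 at lone sites and 4.19 at the densest, against 0.320 and 0.354 at lone sites with AA. The isolated-to-dense fold was 3.21 in 769 (geometric mean of both AA samples) and 1.24 in 786, a difference between lines that was not tested because each has 1 control. Counted once per site, the folds were 2.64 and 2.05, and at equal depth and counted once 2.44 and 1.40, so the gap between the lines narrows with the counting. The AA samples of both lines lay near each other at dense sites, at 2.26 and 2.36 in 786 and 2.56 and 2.30 in 769. The 786 control lay nearer to its AA samples than the 769 control at both ends of the gradient.

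The 786 value moved with the way a site is counted. With each site counted once at equal depth, the isolated-to-dense fold was 1.47 and 1.34 in the AA samples. Both AA samples then exceeded the control at lone sites (1.25-fold and 1.30-fold) and fell below it at the densest (0.861-fold and 0.854-fold). Without the 40 largest sites the fold was 1.25 and 1.18. Read per region in place of per site, bins of 100 kb with under 20 CCGG sites had ratios of 0.609, 0.711 and 0.673, while bins with 200 or more had 0.848, 0.837 and 0.882. The bins with under 20 sites were thus at 1.17-fold and 1.10-fold, on 776 control tags, with 1.43-fold and 1.35-fold on left tags alone and 1.00-fold and 0.954-fold on right tags alone. Bins with 20 to 49 sites had ratios of 1.04, 1.37 and 1.02, those with 50 to 99 had 1.29, 1.23 and 1.17, and those from 100 to below 200 had 1.04, 1.02 and 1.07. Without the 40 largest sites, bins with 20 to 49 sites were at 1.10-fold and 1.08-fold, and those with 50 to 99 at 1.01-fold and 0.994-fold.

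Promoters and other dense sequence parted slightly. All placed promoters together had ratios of 2.60 in the control, 2.53 in AA sample 1 and 2.75 in AA sample 2, on 11451 control tags, so the control lay between the AA samples. Dense sites outside these promoters had 2.59, 2.23 and 2.41, and both AA samples were lower, by factors of 0.861 and 0.930. These sites include promoters that could not be placed.

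Promoter groups of genes with a shared role gave 5 classes with enough control tags. Promoters of 340 housekeeping genes (ribosome, respiratory chain, proteasome, transcription, splicing, replication, cell cycle and vesicle traffic) had ratios of 2.61, 2.92 and 2.92. Those of 237 developmental, signalling, channel, receptor and matrix genes had 2.05, 2.12 and 2.31. In both groups the AA samples were above the control, and the housekeeping group was the more open in every sample. The 157 zinc finger transcription factors, DNA-binding repressors in large part, had 2.52, 2.55 and 3.03 on 290 control tags. The 97 solute carriers, the membrane transporters of nutrients and ions, had 2.30, 2.69 and 2.85 on 210 tags, which is 1.17-fold and 1.24-fold above the control. Long non-coding RNA genes (980 promoters, 2484 tags) were the only 1 of the 5 with both AA samples lower, at 2.71, 2.33 and 2.60. With each site counted once at equal depth the zinc finger fold was 1.03 and 0.933, the housekeeping fold 1.05 and 0.987, and the developmental fold 0.916 and 0.962, so these rises depend on how tags are counted. Lists with under 200 control tags were the 2-oxoglutarate dioxygenases with TET and DNMT, hypoxia response, renal carcinoma tumour suppressors and germline genes, along with each smaller list inside the pooled ones.

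Gene clusters were read at 4 loci with enough control tags. The HOX clusters, which hold the homeobox genes of body patterning and are a known target of methylation in tumours, had ratios of 1.04, 1.21 and 1.30 on 387 control tags. Both AA samples were above the control, by 1.16-fold and 1.25-fold. The zinc finger gene clusters of chromosome 19 had 0.894, 1.06 and 1.13 on 509 tags, so both AA samples were again higher, by 1.19-fold and 1.27-fold. In the major histocompatibility complex, which holds the antigen presentation genes, the ratios were 1.12, 1.12 and 1.22 on 408 tags, within 10% of the control. The imprinted clusters of 11p15, 15q11, 14q32 and 20q13, where parental alleles differ in methylation, had 1.15, 0.910 and 0.944 on 542 tags. Both AA samples were lower there, by factors of 0.790 and 0.819. Counting error of the control alone puts the geometric mean fold between 1.09 and 1.33 for HOX, 1.12 and 1.34 for the zinc finger clusters, and 0.740 and 0.875 for the imprinted clusters (Wilson intervals at 95%).

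The zinc finger clusters were the most stable of the 4. They stayed above the control in both AA samples with each site counted once at equal depth (1.37-fold and 1.27-fold) and on left or right tags alone. None of the 40 largest sites lies in them, so the values without those sites (1.16-fold and 1.18-fold) reflect changed library totals only. HOX was at 1.13-fold in both AA samples when thinned and counted once, at 0.935-fold and 1.05-fold counted once without thinning, and at 0.903-fold and 1.02-fold with at most 5 tags per site. The imprinted clusters were at 1.04-fold and 1.00-fold on left tags alone and 0.614-fold and 0.695-fold on right tags alone, so that fall rests on tags to 1 side of the sites. The clustered protocadherins, the histone and tRNA genes of 6p22, the olfactory receptor, keratin and MAGEA clusters and the epidermal differentiation complex held under 200 control tags. Such intervals cover counting error only, because PCR tags without molecular identifiers are not independent molecules.

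Most chromosome arms lay close to the control on tag counts. Both AA samples were above the control in 21 of 41 arms, both below in 12, and on either side in 8. The geometric mean fold was within 10% of the control in 32 arms, with a median of 1.03, although in 18 arms only with each site counted once and in 17 with at most 5 tags per site. The 4 highest were Xp (1.74-fold and 0.872-fold), 10p (1.19-fold and 1.22-fold), 3p (1.16-fold and 1.23-fold) and 19q (1.12-fold and 1.19-fold). 3p is the arm most often lost in clear cell renal carcinoma, and 19q holds several of the zinc finger clusters. The lowest were 1p (0.924-fold and 0.781-fold), Xq (0.845-fold and 0.873-fold), 2p (0.943-fold and 0.878-fold) and 16p (0.901-fold and 0.943-fold). The AA samples were on opposite sides of the control only on Xp among these 8.

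Without the 40 largest sites, 35 of 41 arms lay within 10%. None of those sites lies on 10p, 3p or 19q, so leaving them out changed only the library totals and is no check on these 3 arms. With the new totals the folds were 1.16 and 1.13 for 10p, 1.13 and 1.14 for 3p and 1.10 and 1.10 for 19q. 1p, Xq and 2p, without the 40 sites, stood at 0.987-fold to 1.06-fold, so their low values rest on those sites. 16p holds none of the 40 and stayed low, at 0.879-fold and 0.877-fold with the new totals. With each site counted once at equal depth 16p was at 0.830-fold and 0.875-fold. Xp, without the 40 sites, stood at 0.747-fold and 0.730-fold. The largest of those sites on Xp, at chrX:55207812, held 0.868%, 1.735% and 0.438% of the HpaII tags of the 3 samples. Its counts differed by at most 1.86% from those of a site at chr7:141504822 in every 786 library.

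**Figure D3:**
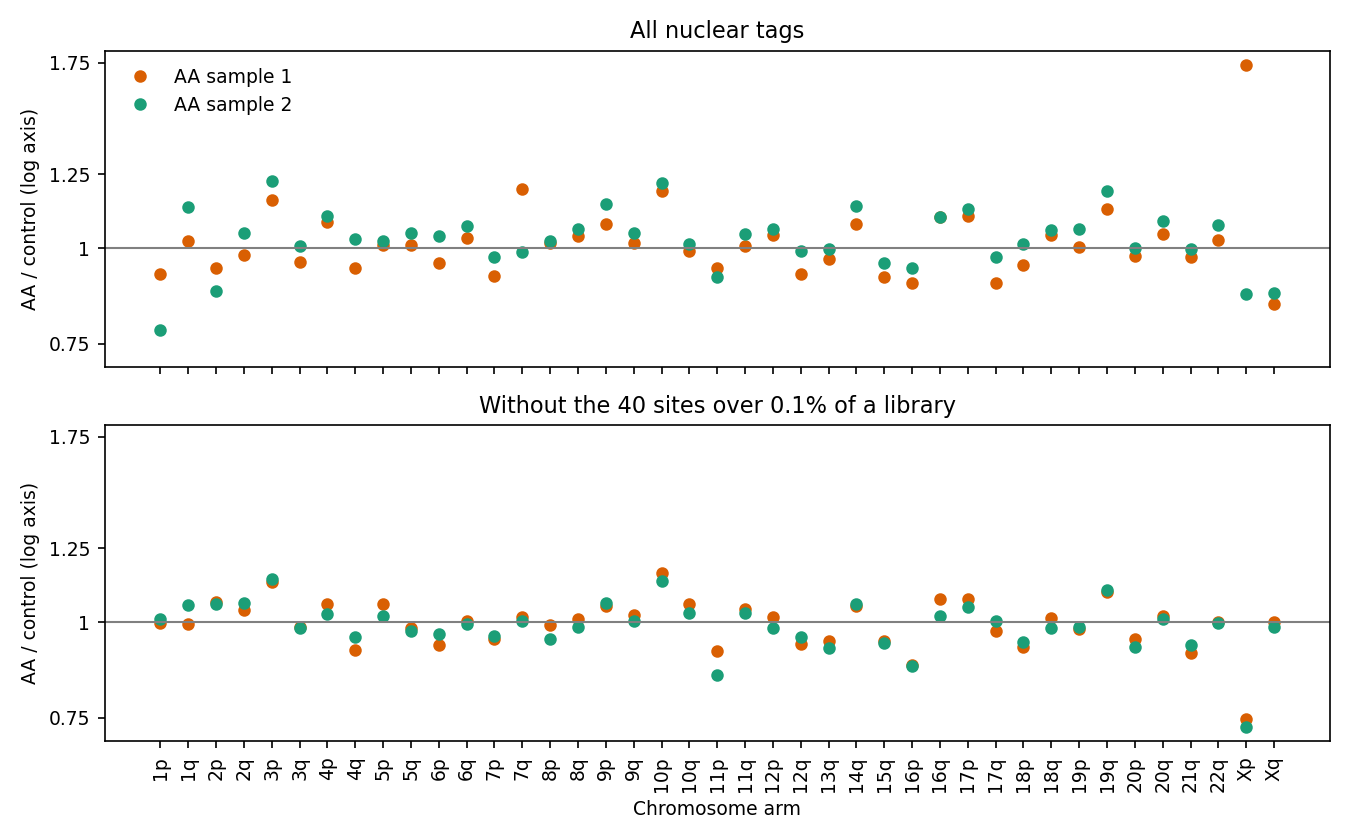
AA over control HpaII/MspI ratio (log axis) in each of 41 chromosome arms of 786, for AA sample 1 and AA sample 2, with all nuclear tags (top) and without the 40 sites that held over 0.1% of a library (bottom). Arms 3p, 10p and 19q, which hold none of those sites, lie above 1 in both AA samples in both panels, and AA sample 1 leaves 1.74 on Xp once those sites are out.

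Chromosome ends had lower ratios with AA on tags. Within 2 Mb of a chromosome end the ratios were 1.00 (control), 0.893 and 0.821, and beyond 20 Mb they were 1.10, 1.11 and 1.13. From 2 to 5 Mb the ratios were 0.842, 0.874 and 0.893, from 5 to 10 Mb 0.868, 0.883 and 0.915, and from 10 to 20 Mb 0.981, 1.08 and 1.02, so both AA samples were above the control in each. Without the 40 largest sites the end class stood at 0.956-fold and 0.942-fold of the control. On the contig that holds ribosomal DNA, the template of ribosomal RNA, the ratios were 0.948, 0.735 and 0.941, so on tags AA sample 1 was the lowest. Both AA samples were far below the control there with each site counted once at equal depth, at 0.278-fold and 0.451-fold. The decoy sequence of the reference had 0.720, 0.811 and 0.763 on 1760 control tags, or 1.13-fold and 1.06-fold, against 0.796-fold and 0.837-fold counted once at equal depth. The other contigs had 1.497, 1.05 and 1.00 on 612 tags, or 0.704-fold and 0.669-fold, and 1.11-fold and 1.01-fold without the 40 largest sites. Each of the 3 thus depends on how tags are counted or on a few sites.

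Mitochondrial DNA, which lies outside the nucleus and carries little methylation, was read as its share of all HpaII tags over its share of all MspI tags. These ratios were 2.63, 4.35 and 1.98, with the control between the AA samples.

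Windows of 10 Mb allowed a test across the genome, with edgeR's quasi-likelihood model over all 12 libraries and the spread shared by both lines. Of 212 windows, 6 (2.83%) were higher and 21 (9.91%) lower with AA at a Benjamini-Hochberg adjusted p under 0.05, and 57 had an unadjusted p under 0.05. The median log2 fold change of all windows was 0.04. Both AA samples lay above the control in 105 windows (49.5%) and both below in 73 (34.4%). No window was called from the 6 libraries of 786 alone, and none when any 1 of the 4 AA samples was left out, with 41 to 52 windows at an unadjusted p under 0.05 in these fits. DESeq2 called 46 windows, among them all 27.

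The 6 higher windows had even coverage in the control. Their largest site held a median of 3.36% of the control's HpaII tags, close to the 4.50% of windows that were not called. None of the 40 largest sites lies in these 6 windows, so leaving those sites out changed only the library totals and is no check on their calls. The 6 kept their sign with each site counted once, but 0 of 6 were called after thinning (edgeR) and 1 of 6 with each site counted once. On chromosome 10, chr10:40000001-50000000 had ratios of 0.700, 1.04 and 0.960 on 380 control tags, or 0.51 ± 0.10 higher (SE) on the log2 scale by edgeR's test (adjusted p = 0.0221). Counted once, this window was at 0.0033, and thinned and counted once at 0.16. It holds the placed promoters of CXCL12, a chemokine, and ZNF487, whose 4 sites had 0, 411 and 186 HpaII tags. On the same chromosome but not adjacent, chr10:20000001-30000000 had 0.812, 1.10 and 1.21 (log2 0.51 ± 0.13, adjusted p = 0.0304, edgeR). It includes BMI1, a polycomb protein, and the peroxisomal gene ACBD5, with 0, 332.5 and 89 HpaII tags. At the control's depth the AA counts at these promoters correspond to between 3.91 and 8.17 tags. A limit of 3 tags for the control's 0 assumes independent tags. Only 2190 of 5324 placed promoters (41.1%) had a control tag at equal depth, so these counts of 0 do not show a difference. Both genes were picked for their MspI tags.

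The other 4 higher windows were on chromosomes 2, 3, 11 and 19. chr11:70000001-80000000 had ratios of 0.578, 0.835 and 0.801, and chr2:1-10000000 had 0.650, 0.920 and 0.885. The first includes INPPL1, an inositol phosphatase, and the second the interferon-induced genes RSAD2 and CMPK2. chr3:10000001-20000000, on the arm that is high as a whole, had 0.750, 1.02 and 1.02 and includes WNT7A, a Wnt ligand, and FBLN2, a matrix protein. chr19:50000001-60000000, which holds zinc finger clusters and the kallikrein gene KLK6, had 0.749, 0.946 and 1.01. In each of the 6, both AA samples were above the control and lay closer to each other than to it, which the choice of windows by the test favours.

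In the 21 lower windows the control rested on few sites. Their largest site held a median of 26.9% of the control's tags, against 2.05% and 1.57% in the AA samples. chrX:130000001-140000000 had ratios of 4.02, 1.23 and 1.25, or -1.70 ± 0.14 on the log2 scale (adjusted p = 0.00018, edgeR), and 1 site held 67.9% of its control tags. Without the 40 largest sites it was at -0.13 (edgeR adjusted p = 0.689). The window includes FGF13, a growth factor homologue of neurons, whose promoter had 0, 59 and 5 HpaII tags. chr2:190000001-200000000 had 2.55, 1.25 and 1.45, with 57.6% of control tags at 1 site, and was at 0.24 without the 40 sites. chr11:130000001-140000000, which holds OPCML, an adhesion molecule often methylated in tumours, had 1.62, 1.11 and 1.09 with 43.8% at 1 site, and was at 0.20 without them. Of the 21 windows, 12 were still called lower without those sites and 15 kept their sign. The 12 include windows that hold none of those sites, where only the library totals changed. The sign was kept by 13 of the 21 with each site counted once.

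The lower windows that did not rest on 1 site were fewer. In 3 of the 21 the largest site held under 10% of the control's tags. None of the 40 largest sites lies in these 3 windows, so leaving those sites out is no check on their calls. chr4:100000001-110000000, which includes NFKB1, a transcription factor of inflammation, had 2.57, 1.24 and 1.38 (log2 -0.97 ± 0.15, adjusted p = 0.00984, edgeR). chr5:160000001-170000000, which includes SLIT3, a guidance cue, had 1.32, 0.895 and 0.800. chr8:80000001-90000000 had 1.32, 0.848 and 0.879 on 286 control tags. It was also lower with each site counted once at equal depth (log2 -0.73, adjusted p = 0.0346, edgeR), which only 4 windows were, whereas the chromosome 4 window then stood at -0.13. chr7:40000001-50000000, which holds the closed VWC2 promoter, had 1.37, 0.732 and 0.804, and chrX:40000001-50000000, with CASK and WAS, had 1.81, 0.954 and 1.18. The chromosome 7 window kept its call without the 40 sites, which include its largest site, with 28.3% of its control tags. The largest site of the X window held 39.3% of its control tags and is not among the 40, so its call was not checked in this way. With each site counted once, the chromosome 7 window was at -0.04 and the X window at 0.31. On left tags alone the X window was at -0.13, and on right tags alone at -1.20.

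**Figure D4:**
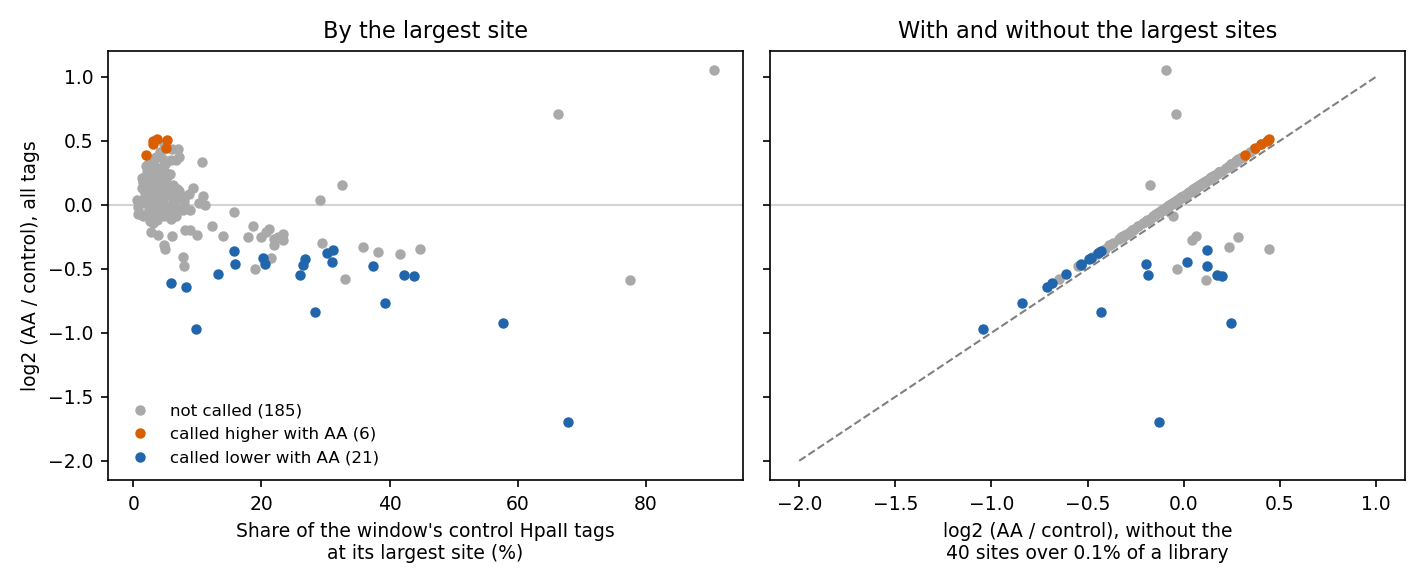
Log2 AA over control of 212 windows of 10 Mb in 786 (edgeR, all tags) against the share of the window's control HpaII tags at its largest site (left, %) and against the same log2 value without the 40 largest sites (right; dashed, equal values). The 6 windows called higher sit under 10% at the left, and the 21 called lower reach from 5.94% to 67.9%.

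Windows just around the threshold on depth were chr4:170000001-180000000, with 197 control tags and left out, and chr3:110000001-120000000, with 200 and kept. The 97 windows left out had a median log2 fold change of 0.26 when tested with the rest, and 8 of them were called, 6 of these higher. The threshold acts on the control HpaII count, which is part of the tested value, so it favours windows where the control is high. The balance of higher and lower calls is therefore not free of this filter. Bins of 100 kb were picked by their control HpaII tags, so a large control site favours the choice of a bin. The AA values beside them are therefore no even comparison. Of the bins, 27 held at least 200 control HpaII tags and together 10.3% of the library. In 20 of these bins 1 site held over 75% of the control's tags, with a median of 92.2% over the 27 bins against 14.7% and 17.5% with AA. The 5 bins with most tags began at chr1:500001, chrX:55200001, chr7:141500001, chr2:49400001 and chr21:9800001. They are a description of where the control's tags lie and were not tested.

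The AA effect was set against that in line 769 in the same model. It differed between lines in 11 of 212 windows (5.19%, edgeR adjusted p under 0.05), 9 of them lower in 786 relative to 769. For chrX:130000001-140000000 the difference was -1.82 on the log2 scale, where 769 had ratios of 0.845, 0.945 and 0.897. For chr10:20000001-30000000 it was 0.69 in the other direction, and there the 769 control was the highest of its 3 samples, at 1.47 against 1.32 and 1.26. After thinning, no window differed between the lines by edgeR's test, with 43 at an unadjusted p under 0.05.

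Sites were also grouped by their state in 769 alone, which used no value of 786. A site needed 10 or more MspI tags in each 769 sample. The 7305 sites with an HpaII tag in all 3 samples of 769 were open in 786 too, with ratios of 2.04, 2.79 and 1.99. The 4218 sites that had a tag in both 769 AA samples but not in the 769 control had 0.910 in the 786 control and 1.40 and 1.48 with AA. That is 1.54-fold and 1.62-fold, and counting error of the control puts the geometric mean fold between 1.53 and 1.63. The 9653 sites with a tag in 1 AA sample of 769 only had 0.282, 0.445 and 0.441. Their folds, 1.58 and 1.56, were about the same, so the rise was not particular to sites tagged in both 769 AA samples. The 12302 sites with no HpaII tag in 769 had 0.237, 0.255 and 0.250, so sites closed in 1 line were largely closed in the other.

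The rise at sites with a tag in both 769 AA samples but not in the 769 control depends on counting tags. With each site counted once at equal depth the folds were 0.685 and 1.00, where sites open in all of 769 had 0.561 and 0.813 and sites closed in 769 had 0.957 and 1.30. The sites closed in 769 then had the highest folds of these groups. Among the AA-only sites, the isolated ones had folds of 1.57 and 1.55, those between isolated and dense 1.58 and 1.67, and the dense ones 1.23 and 1.44 on tags. All 3 density groups were thus above the control in both AA samples on tags, on 380, 3145 and 466 control tags.

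**Figure D5:**
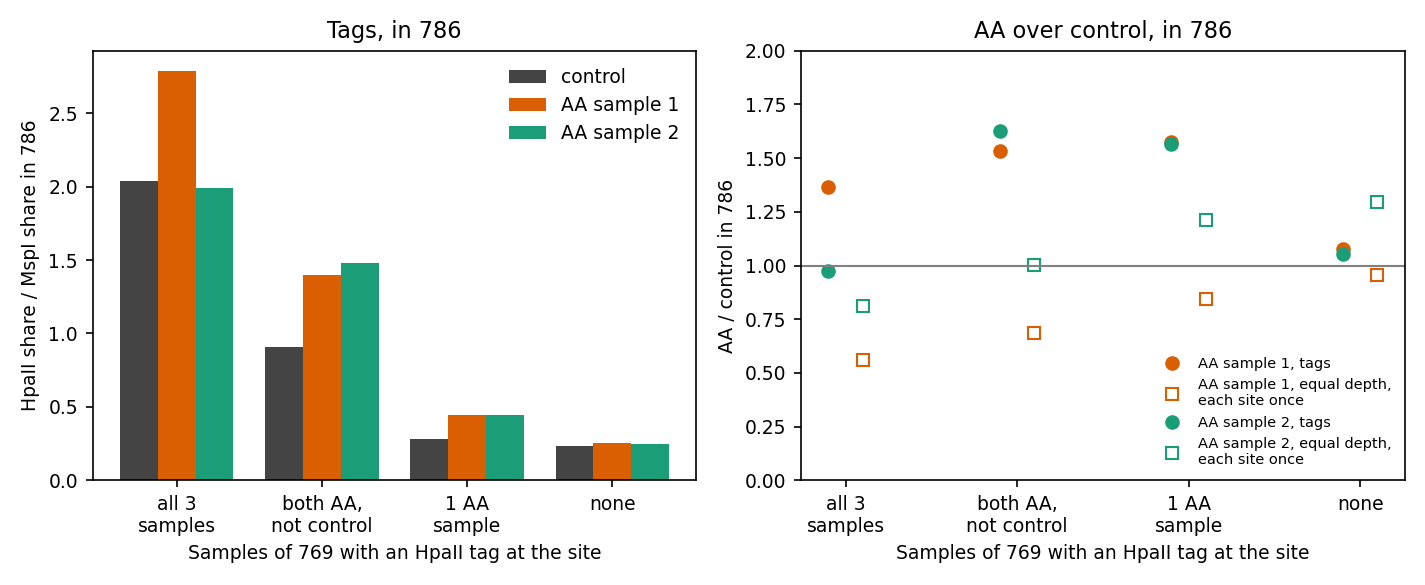
Left, HpaII/MspI ratio in the 3 samples of 786 for sites grouped by which samples of 769 had an HpaII tag, and right, AA over control in 786 for the same groups, on tags (filled circles) and with each site counted once at equal depth (open squares). On tags, sites open only in the 769 AA samples stand at 1.54 and 1.62, and counted once at 0.685 and 1.00.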

How the data were processed

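HELP-tagging libraries of genomic DNA were read as the expected count of tags at each CCGG site (left, right and their sum, which was used), as deposited by the authors. Fractional expected counts were kept for shares and rounded for models. The coordinates are hg19, per the submitters' processing notes, and no aligner is named in the labels or file headers. Amplification took 18 PCR cycles, per the labels' protocols, with no molecular identifier described. Between 8.55% and 11.5% of the sites listed for a 786 library carried fractional counts (tolerance 1e-06).

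Nuclear tags, without the mitochondrial and viral sequence, were the denominator of every share except the mitochondrial ones, which used all tags. The number of CCGG sites within 1 kb, that is in the 1 kb centred on a site and with that site included, was counted from the running number that each file gives a site. Arms were split at the largest gap between listed sites. Promoters came from RefSeq (GRCh38.p14): of 34961 on chromosomes 1 to 22 and X, 8308 had at least 4 CCGG sites, and 5917 matched the spacing and running numbers of sites at 1 place of their chromosome (at least 75% listed), against 8 (0.096%) on a wrong chromosome. With 1 promoter per symbol in RefSeq gene order 5324 were kept. No coordinate was carried between builds. Some promoters share sites, and gene groups were made from symbols.

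Windows of 10 Mb with at least 200 control HpaII tags were fitted with edgeR 4.0.16 in R 4.3.3 (quasi-likelihood, 12 libraries, terms for DNA sample, enzyme, enzyme by line and enzyme by AA in each line, 2 residual degrees of freedom). The Benjamini-Hochberg adjustment ran over all windows tested, and an adjusted p under 0.05 was called. The residual spread comes from the AA samples of both lines only, and the model assumes that the single 786 control varies like them. Tested on simulated data for this comparison, 40 of 40 windows changed 2-fold among 212 were recovered with 2 false calls. The simulation gave all libraries 1 common dispersion and did not model tags concentrated at single sites of the control. It therefore cannot show how reliable the calls are where the control's tags are so concentrated. Named are up to 8 rises and 8 falls past the threshold with both AA samples on 1 side of the control, the 4 highest and 4 lowest arms, and the pooled classes with at least 200 control tags. The genes named inside windows and among closed promoters were picked after their values were seen. Members and lists were chosen with earlier results of these data known. Alternatives were DESeq2 1.42.0, TMM, other window sizes and filters, thinning, counting sites once or up to 5 tags, 1 side of the site, a replicate block and leaving out samples. Python 3.11.15 with numpy 2.4.6, pandas 2.3.3, scipy 1.17.1 and matplotlib 3.10.9 was used.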

Additional observations from a re-analysis of the deposited data

Results flagged for a closer look

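In 11 windows of 10 Mb the AA effect on the HpaII/MspI ratio differed between lines 786 and 769 by the test of the difference itself (edgeR's quasi-likelihood test, adjusted p under 0.05). The differences of the log2 effects (786 minus 769) are given here. In 9 windows 786 was the lower. These were chrX:130000001-140000000 (-1.82), chr11:130000001-140000000 (-0.93), chr10:50000001-60000000 (-0.82), chr7:40000001-50000000 (-0.71) and chr10:110000001-120000000 (-0.69). The other lower windows were chr17:60000001-70000000 (-0.60), chrX:1-10000000 (-0.55), chr15:20000001-30000000 (-0.55) and chr15:90000001-100000000 (-0.50). In 2 windows 786 was the higher, chr10:20000001-30000000 (0.69) and chr17:20000001-30000000 (0.56). In chr10:50000001-60000000 the ratios were 1.11, 0.881 and 0.909 in 786 and 0.664, 0.939 and 0.941 in 769, so the AA samples of each line lay on opposite sides of their controls. In chr17:20000001-30000000 they were 0.932, 1.13 and 1.09 in 786 and 1.32, 1.05 and 1.08 in 769. The count of such windows depends on the setting, and the values are in the next section.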

How the results depend on the processing

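The 27 windows called in 786 became 46 with DESeq2, 17 in windows of 5 Mb, 12 with each site counted once, 2 after thinning, 4 with both, and 0 from the libraries of 786 alone (edgeR; 52 at an unadjusted p under 0.05). The 11 windows that differed between lines became 1 with TMM, 1 on chromosomes 1 to 22 and X only, 37 with DESeq2, 18 with no low count filter, 6 in windows of 5 Mb, 1 with each site counted once, 0 after thinning (43 unadjusted), 0 with both (15), 0 on left tags (44), 21 on right tags and 30 without the 40 largest sites. Leaving out 1 AA sample gave 0 to 0 calls for both results (edgeR, 35 to 52 unadjusted), with the lone sample assumed to vary like the others. The replicate block on the AA numbers gave 2 and 1 calls, and the labels give a shared number only (r = -0.393 over 212 windows between the lines' differences of AA sample 1 and 2). With crossed numbers the block gave 48 and 40 calls. The isolated-to-dense fold was 1.24, 1.08 to 1.42 leaving out an AA sample, 1.73 with at most 5 tags per site and 2.05 with each site counted once. The fold at sites open only in the 769 AA samples was 1.58, and 0.473, 0.416 with those 2 settings and 0.829 thinned and counted once. It was 1.505 without the 40 sites, which for this group changed only the library totals. Among the windows named in the report, log2 values changed sign in 4: chrX:130000001-140000000 (0.57 counted once, 0.47 with at most 5 tags, 0.36 thinned and counted once), chr2:190000001-200000000 (0.24 without the 40 sites, 0.0087 thinned and counted once, 0.36 on left tags), chrX:40000001-50000000 (0.31 counted once, 0.23 with at most 5 tags) and chr11:130000001-140000000 (0.20 without the 40 sites, 0.39 counted once, 0.30 with at most 5 tags, 0.19 thinned and counted once, 0.055 on left tags). The causes of these changes were not tested. Over all 212 windows, 128 kept their sign with each site counted once. Arms with both AA samples above the control numbered 16 to 25 (21 on all tags), and those with the control between went from 8 to 4 with at most 5 tags per site, 2 counted once and 15 on right tags. The depth of the control HpaII library, 189704 tags, limits every value for a single promoter or site.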
